A study of Mus musculus with 2 samples.

Results

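The 9 genes described here were chosen by symbol from the gene and transcript tables of GENCODE release M21, which hold 55536 mouse genes. They are the 4 CDC-like kinases Clk1, Clk2, Clk3 and Clk4, the O-GlcNAc transferase gene Ogt, the DEAD-box helicase genes Ddx5, Ddx17 and Ddx39b, and Son, and all 9 were found. Polyadenylated RNA was sequenced from G1E-ER4, a male mouse erythroid line. Its parent cells lack Gata1, and it carries GATA1 fused to the ligand-binding domain of the estrogen receptor, so that estradiol switches the factor on. Both libraries came from cells given 17beta-estradiol at 10 nM for 24 h, the treatment that starts erythroid differentiation in this line, and form 1 group with n = 2. No untreated or parental sample was analysed here, so the values are levels after induction and no effect of GATA1 or estradiol can be read from them. The labels number the libraries as biological replicates 1 and 2 but tie both to 1 biosample record. They do not describe how the cultures were kept apart, so biological and technical spread between replicates cannot be told apart.

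Pre-mRNA introns are normally removed before a transcript leaves the nucleus, but some polyadenylated transcripts keep 1 or more of them and stay nuclear until the intron is spliced or the RNA is degraded. The CLK kinases phosphorylate SR proteins, the splicing factors that define exons, and their own transcripts are textbook cases of such detained introns. OGT adds N-acetylglucosamine to serines and threonines of nuclear and cytosolic proteins, and splicing of an intron in its pre-mRNA responds to the level of that modification. DDX5 and DDX17 are closely related RNA helicases that act in transcription and splicing, DDX39B unwinds RNA in spliceosome assembly and mRNA export, and SON is a scaffold of nuclear speckles that promotes splicing of weak introns. Late erythroblasts are known for extensive intron retention.

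The annotation gives each transcript a type, and 3 types matter here. A protein_coding transcript has a full or partial reading frame, a nonsense_mediated_decay transcript has a stop codon placed so that the RNA would be a target of that decay pathway, and a retained_intron transcript holds intronic sequence relative to the coding transcripts of its gene. Shares of a gene's level by type were computed from TPM, the abundance per transcript length that the authors deposited, scaled to a fixed total in each table. The shares rest on how the authors' quantifier divided reads among overlapping transcripts, since a read in an exon that several transcripts share belongs to none of them by sequence.

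In each of the 4 CLK genes at least 1 annotated retained_intron transcript keeps both introns around the same exon, the fourth of the coding transcript numbered 201. The exon lies in the coding sequence of each gene, and its length leaves a remainder of 1 after division by 3, so a transcript that skips it is shifted out of frame. Its sequences are shown because they are where coding, skipped and intron-retaining CLK transcripts part. Each is given 5′ to 3′ on the gene's strand from the GENCODE M21 transcripts on mm10, with the exon in capitals and 20 bases of each flanking intron in lower case. The Clk1 window is chr1:58420101-58420231 on the minus strand, that of Clk2 chr3:89169598-89169722 on the plus strand, that of Clk3 chr9:57758607-57758743 on the minus strand and that of Clk4 chr11:51273058-51273188 on the plus strand.
Clk1: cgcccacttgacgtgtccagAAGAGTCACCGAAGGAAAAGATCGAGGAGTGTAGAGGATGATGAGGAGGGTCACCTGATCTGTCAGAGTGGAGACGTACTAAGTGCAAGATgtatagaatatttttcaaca
Clk2: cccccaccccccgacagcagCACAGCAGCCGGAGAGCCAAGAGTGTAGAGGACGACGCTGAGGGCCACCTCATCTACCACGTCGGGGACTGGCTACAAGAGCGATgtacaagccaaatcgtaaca
Clk3: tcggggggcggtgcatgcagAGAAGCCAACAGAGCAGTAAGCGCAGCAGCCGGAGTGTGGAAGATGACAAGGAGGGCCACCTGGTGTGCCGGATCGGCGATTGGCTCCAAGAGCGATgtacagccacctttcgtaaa
Clk4: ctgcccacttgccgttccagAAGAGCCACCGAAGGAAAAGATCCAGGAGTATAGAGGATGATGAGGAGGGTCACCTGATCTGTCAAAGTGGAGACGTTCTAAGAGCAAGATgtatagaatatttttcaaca
The exon has 91 bases in Clk1, 85 in Clk2, 97 in Clk3 and 91 in Clk4. Clk1 and Clk4 were 93.4% identical over the exon, and the other pairs lay between 63.6% and 66.3%. The 20 intron bases after the exon were the same in Clk1 and Clk4 at all 20 positions, while the other pairs matched at 9 or 10. In frame from the coding exons before it, the retained upstream intron brings a stop codon that starts at its base 4 in Clk1 and Clk4, at base 58 in Clk2 and at base 34 in Clk3. Skipping the exon brings a stop codon that starts 19 bases into the sequence after it in Clk1 and Clk4, 10 bases in Clk2 and 88 bases in Clk3. In Clk3 that lies beyond exon 5, which has 67 bases, in exon 6. The upstream intron has 871 bases in Clk1, 694 in Clk2, 2100 in Clk3 and 1055 in Clk4, and the downstream intron 387, 346, 276 and 391 bases in the same order.

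In Ogt, Ddx39b, Ddx5 and Ddx17, 1 splice donor each separates annotated transcripts that splice there from others that read on into the intron. These donors are shown because the leading transcripts of Ogt, Ddx17 and Ddx39b cross them in at least 1 replicate. Each window has the last 10 exon bases in capitals and the first 20 intron bases in lower case. They are intron 4 of Ogt at chrX:101652199-101652228 on the plus strand, intron 6 of Ddx39b at chr17:35249060-35249089 on the plus strand, intron 11 of Ddx5 at chr11:106783939-106783968 on the minus strand and intron 11 of Ddx17 at chr15:79535937-79535966 on the minus strand, numbered in the transcript 201 of each gene.
Ogt intron 4: AGAAGCCAAGgtaggtgtttgctagaacac
Ddx39b intron 6: CATGCAAGATgtaaatacccttctaccttc
Ddx5 intron 11: AGAGGGCTAGgttagtacaaactcgaattc
Ddx17 intron 11: CGTGGGCTAGgtttgtatagataggtgtct
The introns have 3415 bases in Ogt, 2177 in Ddx39b, 1265 in Ddx5 and 4042 in Ddx17. The transcripts Ddx5-201 and Ddx17-201 each have 13 exons, and the 8 exons from exon 4 to exon 11 have the same length in both genes, so the introns shown for them lie at the same place in the gene structure.

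Depth and identity set limits on all values below. The expected counts came to 71485617 for replicate 1 against 14121747 for replicate 2, or 5.06 times as many, and a gene with 0 counts could be present at up to 0.0420 CPM (counts scaled to a library of 1000000) in replicate 1 and 0.212 CPM in replicate 2, on a floor of 3 counts. All 10 erythroid markers were detected, which here means at least 1 TPM in each replicate, by mean level from Hbb-bs, the adult beta globin, at 97719 and 34786 TPM to Tfrc, the transferrin receptor, at 30.3 and 8.38 TPM. Hba-a1, an alpha globin gene with a near-identical copy that makes its transcript split uncertain, had retained_intron shares of 96.1% and 4.17% on 67200 and 30385 TPM, and Alas2, the first enzyme of erythroid heme synthesis, had 0.777% and 0.710%. Of 12 markers of other blood cells 2 were detected, Spi1 at 5.97 and 5.41 TPM and Itga2b at 3.17 and 2.96 TPM, and 6 (Cebpa, Itgam, Csf1r, Cpa3, Fcer1a and Pf4) had no counts in either replicate. The median log2 ratio of replicate 2 to replicate 1 was -0.39 over the 8892 genes tested that were above 0 in both, so most genes had a lower TPM in replicate 2.

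Ddx5 had by far the highest gene level of the 9 and the kinases Clk1 and Clk4 the lowest. Ddx5 reached 1263 TPM in replicate 1 against 7458 in replicate 2 (4361 ± 4381, mean and SD, n = 2). Ddx39b followed at 230 and 203 TPM, Ddx17 at 64.25 and 62.05, Son at 38.3 and 66.3, and Clk2 at 49.02 and 44.65. Below them lay Clk3 at 44.75 and 21.5 TPM, Ogt at 3.49 and 2.87, Clk1 at 2.66 and 1.30, and Clk4 at 1.45 and 0. Ranked by mean level, the neighbours Ddx17 and Son, Son and Clk2, Clk2 and Clk3, and Clk1 and Clk4 had ranges that overlapped across replicates. Within each replicate, however, Clk2 lay above Clk3 and Clk1 above Clk4, and Ddx17 lay above Clk2 and Clk3. The ranges of Ddx5, Ddx39b and Ddx17 were apart, and Ogt lay above Clk1 and below Clk3 in both replicates.

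**Figure D1:**
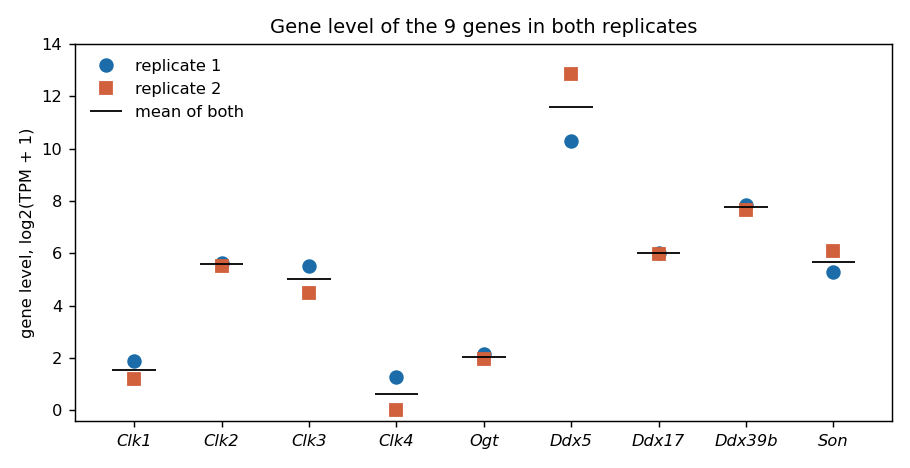
Level of each of the 9 genes as log2(TPM + 1) on the vertical axis, with circles for replicate 1, squares for replicate 2 and a black line for their mean. Ddx5 stands highest and furthest apart between replicates, at 1263 and 7458 TPM, and Clk4 is at 0 in replicate 2.

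The 2 replicates were within 2-fold of each other for 5 of the 9 genes, namely Clk2, Ogt, Ddx17, Ddx39b and Son. Ddx5 was 5.91-fold higher in replicate 2 in TPM, in a direction that 15.5% of the 9029 genes tested took at over 2-fold. In CPM, which does not divide by transcript length, the Ddx5 ratio was 3.29, from 944 and 3107 CPM, and in the table made from reads it was 1.17, from 826 and 962 TPM, so its size depended on the quantification. Clk1, Clk3 and Clk4 were over 2-fold lower in replicate 2, as were 35.4% of genes tested. Clk3 was 2.08-fold lower in TPM and lower by more than 2-fold under all 8 alternative scalings and tables. Clk1 rested on 336 counts in replicate 1 and 14 in replicate 2, and was 2.05-fold lower in TPM and 4.74-fold lower in CPM. Its posterior mean TPM, 3.18 and 2.87, did not differ by 2-fold, nor did its M4 values of 2.77 and 2.47, and it stayed within 2-fold in 4 of 9 settings. Clk4 had 150 counts in replicate 1 and 0 in replicate 2, where 29.6 would be expected at the same share of the library, and was at least 9.88-fold lower in CPM on the floor of 3 counts. The posterior mean of Clk4 was 1.84 and 1.81 TPM, but with 0 expected counts the second value does not rest on assigned reads. For Clk4 the table made from reads gave 2.02 and 0.422 TPM. Son was higher in replicate 2, 1.73-fold in TPM, and passed 2-fold only with edgeR TMM scaling and DESeq2 size factors. In the table made from reads the direction was the opposite, with 46.4 and 36.5 TPM. The median log2 ratio of all genes tested was -1.77 in that table, against -0.39 in the main one. Ratios of Son and Ddx5 in the 2 tables are therefore not on the same scale, and the opposite direction of Son holds only before that shift is considered.

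The transcript types of the 9 genes differed widely from each other. Clk3 and Ddx17 were carried by protein_coding transcripts, Ddx39b and Ogt held retained_intron transcripts at 30% or more of their TPM in both replicates, and Ddx5 and Son held nonsense_mediated_decay transcripts at 25% or more in both. The share at 30% or more was held by 2 of the 7 genes among the 4786 detected protein-coding genes with an annotated retained_intron transcript, against 18% of that whole set. None of the 7 reached 50% in both replicates, against 12.2% of the set. The 2 genes outside this comparison were Ddx17, whose 4 annotated transcripts are all protein_coding, and Clk4, which had no TPM in replicate 2. Over the 7 genes the median retained_intron share came to 23.0% and 2.23% in replicates 1 and 2, against 4.28% and 2.59% over the set. The difference between the replicates was not the same by every estimate: posterior mean TPM gave medians of 23.1% and 28.1%, the table made from reads 13.6% and 10.3%, and expected counts 29.2% and 5.30%. In replicate 2 the posterior median depended on Clk1, which had 31.7% by posterior mean against 0% in the main table. No expected counts were assigned to its retained_intron transcripts in that replicate. Of the 7 genes, 5 in replicate 1 and 3 in replicate 2 lay above the set's median.

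**Figure D2:**
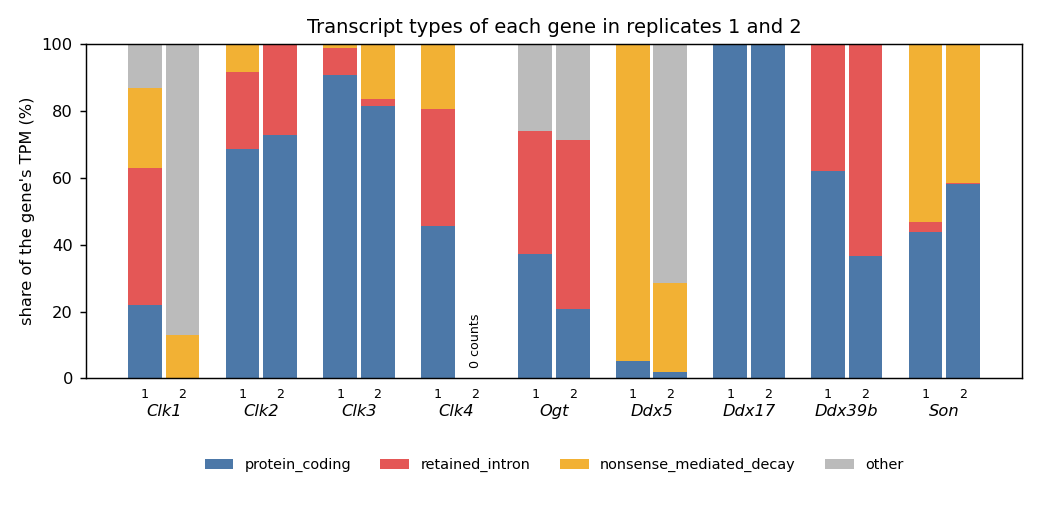
Share of each gene's TPM by transcript type, stacked to 100% on the vertical axis, with 1 bar for each replicate. Ddx17 is all protein_coding, the retained_intron part of Ddx39b is 37.7% and 63.4%, and the types of Clk1 and Ddx5 differ most between replicates.

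Clk1 phosphorylates SR proteins in the nucleus and had the retained_intron share that differed most between replicates. It was 41.1% in replicate 1 and 0% in replicate 2, where only 14 counts were assigned to the gene. Counted in expected counts it was 56.2% in replicate 1, with a Wilson 95% interval of 50.9% to 61.5%, and 0% in replicate 2, with one of 0% to 21.5%. These intervals cover counting error only. In replicate 2, Clk1-208, a processed_transcript of exons 10 to 13 that covers no part of exon 4, took 86.9% of the TPM on 11.1 counts. Its type is not retained_intron, but it keeps the whole intron between exons 10 and 11. The table made from reads gave Clk1 retained_intron shares of 46.4% and 34.2%, so its low share in replicate 2 was not seen there.

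Clk2 had a retained_intron share of 23.0% in replicate 1 against 27.4% in replicate 2. In expected counts it was 29.2% (28.2% to 30.4%, Wilson 95% interval) and 50.3% (47.1% to 53.6%), so the replicates were further apart on that scale, and in the table made from reads replicate 2 was the lower, with 10.3% against 13.6%. Its main intron-retaining transcript, Clk2-207, spans both introns around exon 4 with 7.75 TPM in replicate 1 against 12.2 in replicate 2. The second such transcript, Clk2-206, keeps only the downstream intron and was at 3.32 and 0 TPM. Among Clk2 transcripts that decide the fate of exon 4, those with both introns kept held 17.1% in replicate 1 and 46.2% in replicate 2, those with the exon spliced in 66.5% and 53.8%, and those that skip it 9.08% and 0%. In the table made from reads, both introns kept took 18.0% and 57.6% of the same total. The short protein_coding fragment Clk2-210, which stops before exon 4, was the leading transcript in replicate 2 at 18.2 TPM and held 3.47 TPM in replicate 1. In the table made from reads Clk2-210 led in both replicates, at 15.8 and 24.2 TPM. Transcripts that do not cover exon 4 held 34.8% and 82.5% of Clk2 there, so the deciding transcripts were a small part in replicate 2.

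Clk3 was the CLK gene with the most exon 4 splicing. Transcripts with the exon spliced in held 90.8% and 75.4% of the Clk3 TPM that decides its fate, led in both replicates by Clk3-201 at 22.6 and 11.7 TPM. Its retained_intron share was 8.05% in replicate 1 and 2.23% in replicate 2. The exon-skipping transcript Clk3-209, of the nonsense_mediated_decay type, was at 0.56 TPM on 24.9 counts and at 3.52 TPM on 27.6 counts, and skipping held 1.29% and 22.01% of the deciding TPM. Clk3 overlaps Edc3 on the opposite strand by 1876 bases, and the sources used here do not say whether reads were counted by strand.

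Clk4 could be described in replicate 1 only. Its 1.45 TPM there was 45.5% protein_coding, 35.2% retained_intron and 19.3% nonsense_mediated_decay. Exon 4 was spliced in by 45.5% of the deciding TPM, skipped by 32.3% and flanked by both introns in 22.2%. For Clk1 in replicate 1 the same classes held 33.5%, 36.4% and 30.1%, so that in the pair with near-identical exon sequences less than 50% of the deciding TPM joined the exon on both sides. With 336 and 150 counts for the whole genes, these splits carry large counting error.

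**Figure D3:**
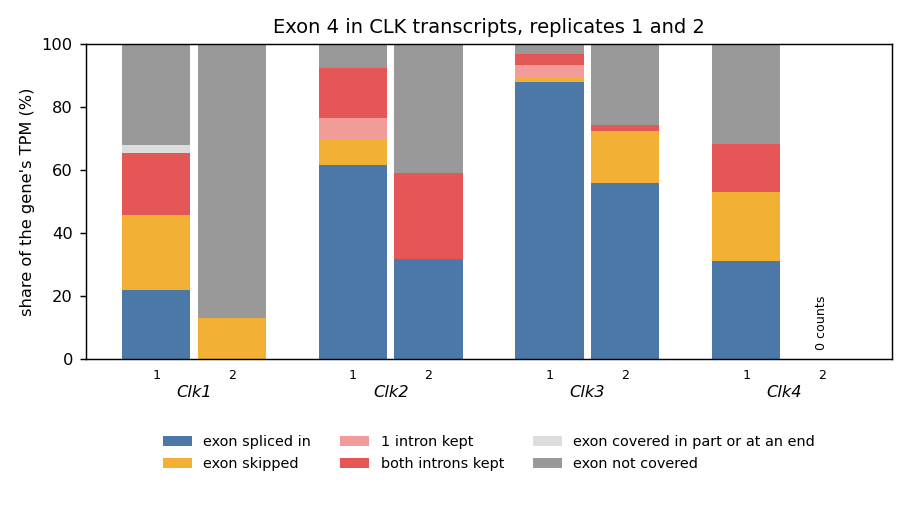
Share of each CLK gene's TPM by what its transcripts do at exon 4, stacked to 100% on the vertical axis, with 1 bar for each replicate. The spliced exon makes up 87.9% and 56.0% of Clk3, both introns are kept in 15.8% and 27.4% of Clk2, and transcripts that do not cover the exon fill 86.9% of Clk1 in replicate 2.

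Ogt had more retained_intron than protein_coding TPM in replicate 2 and nearly equal parts in replicate 1. The retained_intron share was 36.7% in replicate 1 and 50.7% in replicate 2, and the protein_coding share 37.2% and 20.6%. All 3 of its retained_intron transcripts cross the donor of intron 4 shown above, after an exon of 69 bases, and end inside the intron. Ogt-204, which holds 2378 of the 3415 intron bases, was at 1.18 and 0.31 TPM, while Ogt-207, which holds 686, was at 0.03 and 1.14 TPM on 2.68 and 16.9 counts, so the leading transcript differed while its type did not. Transcripts that cross this donor held 45.1% in replicate 1 and 71.1% in replicate 2 of the TPM that either crosses it or splices there, and 53.3% and 99.3% in the table made from reads. The gene had 870 and 90 expected counts, and the retained_intron part of these counts was 29.7% (26.8% to 32.9%, Wilson 95% interval) and 31.5% (22.5% to 41.3%), with overlapping intervals.

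Ddx39b had the highest retained_intron level of the 9 genes. Its only transcript of that type, Ddx39b-204, has exons 1 to 6 of Ddx39b-201, the first in part, and ends 801 bases into intron 6. It was at 86.8 TPM in replicate 1 and 128 in replicate 2, while the coding Ddx39b-201 was at 135 and 59.0 TPM. The retained_intron share was 37.7% and 63.4%, and as a share of expected counts 37.2% (Wilson 95% interval 36.6% to 37.8%) and 61.7% (60.2% to 63.2%). In the table made from reads it was 33.1% and 49.5%, also higher in replicate 2, although the TPM of Ddx39b-204 there was lower in replicate 2, at 60.0 and 35.1. The leading transcript was thus coding in replicate 1 and intron-retaining in replicate 2 in both tables.

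Across the 7 genes, the retained_intron share lay over 10 percentage points apart between replicates in 3, Clk1, Ogt and Ddx39b, as in 36.4% of the 4786 genes. It was higher in replicate 2 by that much in Ogt and Ddx39b, against 22.1% of the set, and lower in Clk1, against 14.2%. The protein_coding share was under 50% in both replicates in Clk1, Ogt and Ddx5, 3 of 7 genes against 26.1% of the set. In Clk2, Clk3, Ddx5 and Son the retained_intron shares of the replicates were within 10 points.

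**Figure D4:**
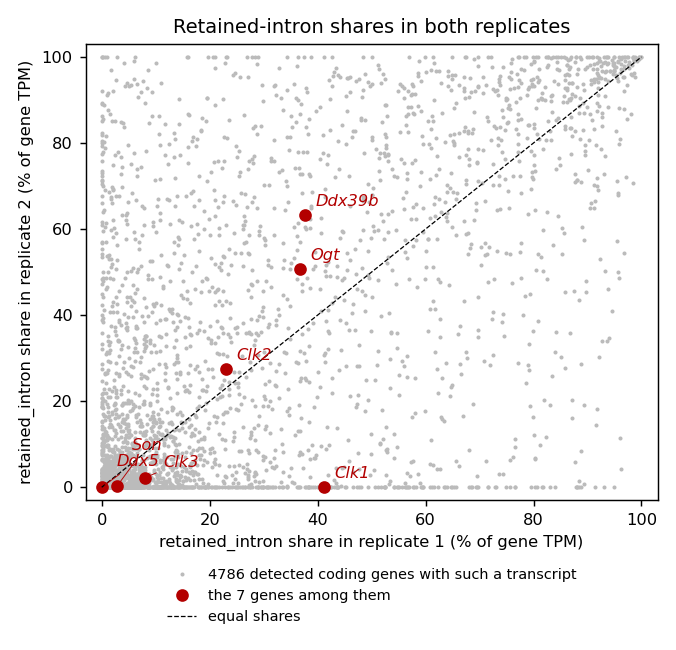
Retained_intron share of gene TPM in replicate 1 (horizontal axis, %) and replicate 2 (vertical axis, %), with grey dots for the 4786 detected coding genes that have such a transcript and red circles for the 7 named genes among them. Ogt and Ddx39b lie above the dashed line of equal shares, Clk1 lies on the axis at 41.1% and 0%, and grey dots spread over the whole plane.

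Ddx5 was quantified almost wholly as 2 short transcripts, and a different one led in each replicate. Ddx5-205, of the nonsense_mediated_decay type, was at 1196 TPM in replicate 1 and 1993 in replicate 2. Ddx5-203, a processed_transcript with no annotated reading frame, was at 0 and 5320 TPM. The full-length coding transcript Ddx5-201 was at 4.07 TPM in replicate 1 and 2.21 in replicate 2, and the protein_coding share of the gene was 5.17% and 1.94%. Most of that share lay on the shorter coding transcripts Ddx5-206, at 38.1 and 113 TPM, and Ddx5-204, at 23.1 and 29.75 TPM. In expected counts Ddx5-205 held 63036 and 18442, and Ddx5-203 held 0 and 24060. The gene's level and its difference between replicates therefore rest on these 2 transcripts.

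Ddx5-205 has 4 exons, which lie in exons 1, 2, 12 and 13 of Ddx5-201, so the 9 exons between exons 2 and 12 are left out. Exon 2 joins a point inside exon 12, of which the transcript holds 216 of 225 bases and lacks the first ones. Ddx5-203 also has 4 exons, of which the first 3 lie in exons 1, 2 and 3, with 46 of the 97 bases of exon 3, and the last is an exon of 89 bases inside intron 11. Their junctions are shown because of the 87 annotated transcripts of the 9 genes each is held by 1 only. Each has 15 bases before the junction in lower case and 15 after it in capitals, on the minus strand of chromosome 11 in mm10. That of Ddx5-205 joins bases 106786909 and 106782684, and that of Ddx5-203 joins bases 106786499 and 106783400.
Ddx5-205: gcaaggcgcaccgcaATGTGAAATTTGTCA
Ddx5-203: aaattacagttagagGACCAACTTCTCACA
The files give no counts per junction, so whether reads crossed them was not tested. The table made from reads also put most of the gene on these transcripts, with 701 and 245 TPM on Ddx5-205 and 52.0 and 673 TPM on Ddx5-203. A different transcript thus led in each replicate there too, at a gene level only 1.17-fold apart. Among transcripts of other genes, those of Gm12183 shared the most 31-base words with both, 498 of 849 with Ddx5-205 and 165 of 466 with Ddx5-203, and Gm12183 was at 0.02 and 0 TPM.

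The retained_intron type held 0.00317% of Ddx5 in replicate 1 and 0% in replicate 2. Its 1 such transcript, Ddx5-202, was at 0.04 and 0 TPM. Ddx5-208 keeps the whole of intron 11 but is typed nonsense_mediated_decay, and was at 1.37 and 0 TPM, on 342 and 0 counts. Together, transcripts that cross the intron 11 donor held 25.7% in replicate 1 and 0% in replicate 2 of the 5.48 and 2.21 TPM that cross it or splice at it, and 28.3% and 18.4% in the table made from reads. Ddx5-203 and Ddx5-205 have no exon 11 and do not enter this share. Intron 11 also holds the miRNA gene Gm25994, which was listed at 0 TPM in both replicates.

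Ddx17 has no annotated retained_intron transcript, yet its leading transcript in replicate 2 reads into the corresponding intron. Ddx17-202, typed protein_coding, crosses the donor of intron 11 and ends 1296 bases into it, with 2.37 TPM in replicate 1 against 30.9 in replicate 2. Of the transcripts that splice there, Ddx17-201 held 24.1 and 12.5 TPM and Ddx17-203 held 31.9 and 13.5 TPM. Transcripts that cross the donor held 3.69% of the deciding TPM in replicate 1 and 49.7% in replicate 2, on 459 and 1026 expected counts. The table made from reads gave 7.27% and 34.4%, the same direction with a smaller difference. The gene level was nearly equal, 64.25 and 62.05 TPM, while its protein_coding share was 100% in both replicates by annotation, so the type alone does not show this difference.

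**Figure D5:**
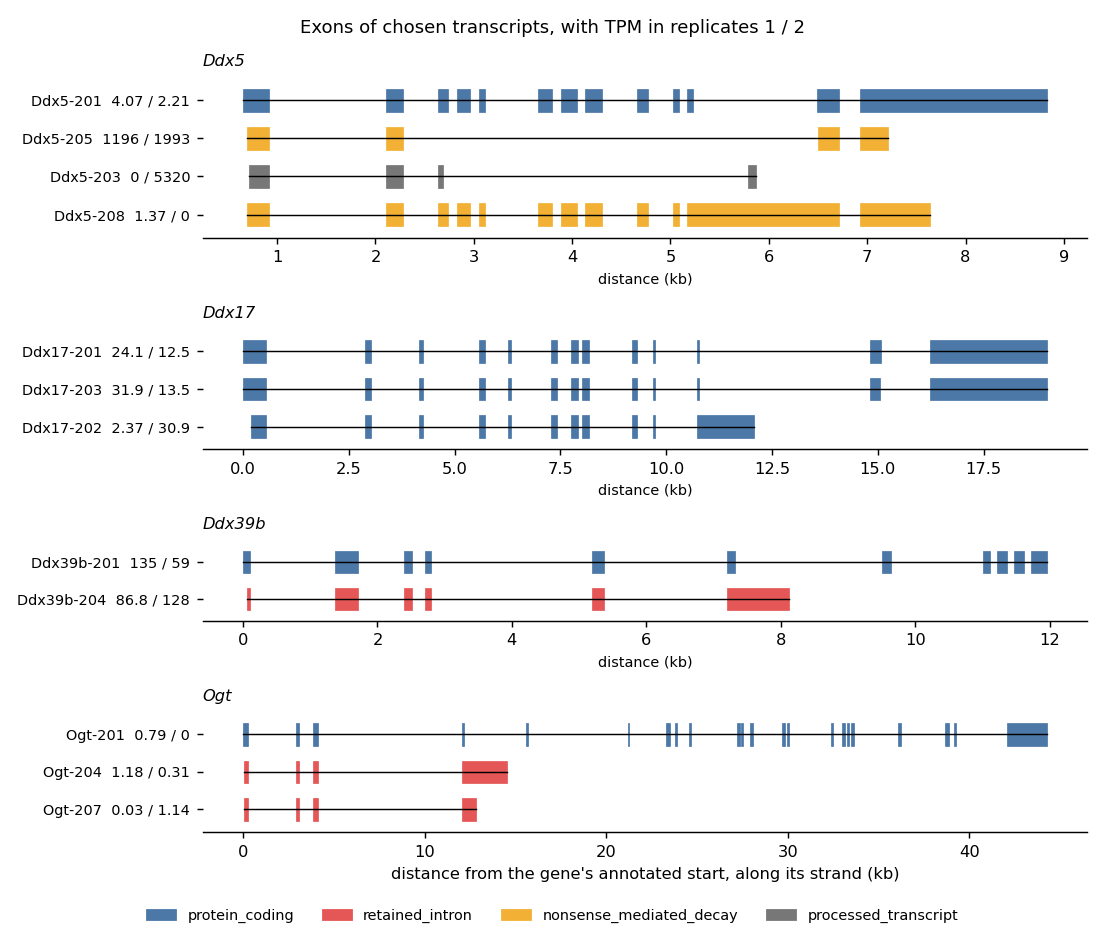
Exons (boxes, to scale) of chosen transcripts of Ddx5, Ddx17, Ddx39b and Ogt against distance from the gene's annotated start in kb, coloured by transcript type, with TPM in replicate 1 and replicate 2 beside each name. Ddx17-202, Ddx39b-204, Ogt-204 and Ogt-207 end inside an intron of the transcript numbered 201, and Ddx5-205 leaves out 9 of its exons.

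Son was divided between protein_coding and nonsense_mediated_decay transcripts, with 43.9% and 58.2% for the first and 53.1% and 41.5% for the second. Its retained_intron share was 2.87% and 0.317%. The leading transcript was Son-212 in replicate 1, at 14.4 and 0.16 TPM, and Son-208 in replicate 2, at 5.92 and 27.4 TPM, both typed nonsense_mediated_decay and both holding an exon of 80 bases that the coding Son-202 lacks. Son-212 also has an exon of 2793 bases, which lies mostly outside the exons of coding transcripts. The table made from reads placed far less on this type, 17.3% and 8.37%, and gave the coding Son-204 34.3 and 32.9 TPM. In the M21 table Son-204 was at 11.2 and 0 TPM, so the split among Son transcripts was not shared by the 2 quantifications. Son overlaps Donson on the opposite strand by 2414 bases, and Donson was at 24.2 and 130 TPM.

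A nonsense_mediated_decay share of 25% or more in both replicates was held by 2 of the 5 genes that have such transcripts and entered the comparison, Ddx5 and Son, against 17.4% of 2422 genes. That threshold was chosen after values were seen, and Ddx5 had 26.7% in replicate 2, so the count is descriptive only. In the table made from reads Ddx5 was at 85.1% and 25.5%, but Son, at 17.3% and 8.37%, was below the threshold. In the main table the nonsense_mediated_decay share was 23.8% and 13.1% in Clk1, 8.40% and 0% in Clk2, and 1.25% and 16.4% in Clk3. In each of the 4 CLK genes at least 1 transcript of this type skips exon 4, as does the coding Clk4-203. In the main table the leading transcript differed between replicates in 7 of the 8 genes detected in both, all but Clk3. That compares with 35.7% of 6956 genes with more than 1 transcript. The 8 genes have 4 to 14 annotated transcripts each. The larger set was not matched for that number, so the 2 figures are not like for like. The count was lower in the table made from reads, where Clk2 and Son each had the same leading transcript in both replicates. There the lead in Ddx17 in replicate 2 was only 6.53 against 6.45 TPM. In the main table the lead in Clk1 was 0.58 against 0.55 TPM in replicate 1 and rested on 11.1 counts in replicate 2.

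The retained_intron type did not mean a whole retained intron in most cases. Of the 29 transcripts of this type in the 9 genes, 11 span at least 1 whole intron of a coding transcript and 18 span none. The 11 that span a whole intron held 15.3 of 106 TPM in replicate 1 and 12.6 of 143 TPM in replicate 2. Clk2, with 11.1 and 12.2 TPM, made up most of that, and Ddx39b-204, which spans no whole intron, most of the rest. Such a transcript cannot be told apart in these tables from one that ends early by polyadenylation inside the intron.

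Among relatives of the CLK kinases, 10 of 12 were detected, and Dyrk1b and Hipk2, 2 kinases of the same larger group, had the highest mean levels, 177 and 382 TPM and 94.7 and 222 TPM. Here and in the lists that follow, the highest and lowest genes are those by the mean of both replicates. Dyrk3 was the lowest detected, at 6.14 and 2.80 TPM, and Dyrk4 had no counts. Leaving aside relatives under 10 TPM in either replicate, the highest retained_intron share was that of Prpf4b, a kinase of the spliceosome, at 80.1% and 83.5% on 23.9 and 22.4 TPM, above any CLK gene in both replicates, and Dyrk1a was next with 0.295% and 0%. Of those under 10 TPM in at least 1 replicate, Srpk1 had 9.19% and 13.8%, Srpk2 7.92% and 31.6%, and Srpk3, which was not detected, 100% and 100%. Of the 6 relatives in the set of 4786 genes, 1 was at 50% or more in both replicates, against 12.2% of that set.

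Of 13 SR protein genes, whose products the CLK kinases phosphorylate, 12 were detected. By mean level Srsf2 was highest at 579 and 1529 TPM, followed by Srsf10 at 145 and 212 TPM, although Srsf4 and Srsf1 lay above Srsf10 in replicate 1. Tra2a was the lowest detected at 21.7 and 7.39 TPM. The retained_intron share was over 10 points higher in replicate 2 in 5 of the 10 that entered the comparison and lower by that much in none, against 22.1% and 14.2% of the set of 4786 genes. Srsf6 had shares of 42.2% and 94.6%, and Srsf11 of 38.5% and 62.35%. The list's median share was 5.03% in replicate 1 and 9.82% in replicate 2.

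Among the partners of Ogt in the O-GlcNAc cycle and its donor sugar's synthesis, the retained_intron share ran from near 0 upward. Oga, which removes the modification and is named Mgea5 in the files, was at 102 and 50.4 TPM with shares of 0.128% and 0.0595%. Hcfc1, a known OGT substrate, was highest by mean level at 120 and 199 TPM. Gfpt1, which commits glucose to UDP-GlcNAc synthesis, had shares of 0.253% and 0% on 11.9 and 20.8 TPM, and Gnpnat1 was the lowest detected at 1.14 and 1.95 TPM, with shares of 2.61% and 16.9%. Pgm3, which was not detected, had 30% and 100% of 0.5 and 0.1 TPM. Of the 8 genes listed 6 were detected, and none of the 5 in the comparison was at 30% or more in both replicates, against 18% of the set of 4786 genes.

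Among mRNA export genes, the setting in which DDX39B acts, 11 of 14 were detected. Alyref, an adaptor that DDX39B loads onto RNA, was at 272 and 81.5 TPM with retained_intron shares of 29.1% and 58.5%, and Poldip3 was at 234 and 175 TPM. Thoc3, a subunit of the THO complex, had shares of 85.9% and 94.7% on 68.6 and 34.5 TPM, and Sarnp was the lowest detected at 2.72 and 1.57 TPM. Over the 9 in the comparison the median share was 13.4% and 2.78%. Of 14 other DEAD-box and eIF4A helicase genes 12 were detected and Ddx3y had no counts. The highest by mean level were Ddx23 at 94.7 and 57.3 TPM and Eif4a1 at 109 and 39.9 TPM, and the lowest detected was Eif4a2 at 1.33 and 2.40 TPM. Ddx41 had the highest retained_intron share among those at 10 TPM or more, 28.8% and 64.9%, followed by Eif4a1 at 2.89% and 2.58%, and 5 of 10 in the comparison were over 10 points higher in replicate 2 with none lower, against 22.1% and 14.2% of the set.

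Of 11 genes of nuclear speckles, where SON resides, 10 were detected. Srrm1 was highest at 554 and 1262 TPM and Bclaf1 the lowest detected at 7.63 and 4.98 TPM. Rbm39 had retained_intron shares of 48.4% and 67.4%, and Rnps1 20.9% and 88.8% on 154 and 418 TPM, both far above Son by this type. The Son share leaves out Son-212 with its exon of 2793 bases, which is typed nonsense_mediated_decay. Among 13 factors of nonsense-mediated decay, the pathway for which Ddx5-205 and the leading Son transcripts are annotated as targets, 11 were detected. Upf1, the central helicase of the pathway, was at 101 and 129 TPM, Smg1, the kinase that phosphorylates it, at 19.1 and 87.2 TPM, and Smg8 was the lowest detected at 3.41 and 3.30 TPM. Smg1 and Smg9 had the highest retained_intron shares among those at 10 TPM or more, 34.2% and 31.2% and 36.3% and 13.1%.

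All 10 genes listed as known for intron retention in erythroblasts were detected, and 1 of them, Eif4a2, was at 30% or more in both replicates, against 18% of the set of 4786 genes. Eif4a2 was also the lowest of the 10 by mean level, at 1.33 and 2.40 TPM on 139 and 17 expected counts. Snrnp70, a U1 snRNP protein gene and the highest of them at 764 and 235 TPM, had shares of 27.1% and 95.3%. Hnrnpd, at 296 and 660 TPM, had none, and Hnrnpa2b1 had 4.91% and 32.6%. Sf3b1, a core U2 snRNP gene, was at 8.01% and 2.83%. Their median was 4.79% and 3.16%, against 4.28% and 2.59% for the set of 4786 genes.

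By share alone, the coding genes with the most retained_intron TPM at 20 TPM or more in both replicates were none of the 9 genes. Of 1880 such genes, Eif1ax, Taf10, Sod2, Tmem30a and Stx7 had the highest lower share, from Stx7 with 99.02% and 99.18% to Eif1ax with 99.84% and 99.96%. All 5 lay far above Ddx39b at 37.7% and 63.4%.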

How the data were processed

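Expected counts, TPM and interval bounds per gene and transcript were used as the authors deposited them. Per the deposited file descriptions, reads were placed on mm10 with GENCODE M21 and M4, and a separate M21 transcript table was made from the reads themselves. Column names match RSEM for the former and kallisto for the latter. The sources used here name no aligner or quantifier and do not say whether strand was used. The deposited expected counts are the authors' estimates, not normalized and not always whole. TPM values, per the file headers, are scaled to a fixed total. The deposited signal columns are the authors' lower and upper bounds of the posterior TPM, which were read but decide no result.

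The M21 tables were the main ones. Detection required at least 1 TPM in each replicate. Type shares are sums of transcript TPM over the gene's sum. The main fold calls were made on TPM with no pseudocount and needed a mean of 50 or more expected counts. A pseudocount of 1 TPM was used in the plot of gene levels and in an alternative fold setting without that filter. In that alternative Clk1 was 1.59-fold lower in replicate 2 and was not called. Fates of CLK exon 4 and of splice donors came from the M21 exons, where "deciding" transcripts cover the exon's surroundings or the donor, and an exon with ends within 3 bases counted as the same. Intervals are Wilson 95% intervals and, like the floor of 3 counts, cover counting error only. The single group allowed no test between conditions. The fold and share code was tested on simulated data. No unassigned column of per-sample values was used. Depth was 71485617 and 14121747 expected counts.

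All 9 genes were named, with some of their transcripts, which do not include every leading one. From each other list the 2 highest genes, the lowest detected, those with no counts and the 2 with the highest retained_intron share at 10 TPM or more in both replicates were named. Further transcripts and Sf3b1 were named after their values were seen. The genes and lists were chosen with earlier results of these data known, and the thresholds of 10 points and 25%, the comparison of leading transcripts and the 4 introns after values were seen. Of 15 export genes, Zc3h11a matched 2 gene identifiers and was left out. Alternatives were posterior means, M4, the table made from reads, shares of counts, other denominators and thresholds, TPM over nuclear protein-coding genes, CPM, edgeR TMM scaling, DESeq2 size factors (expected counts rounded first), and leaving out either replicate. Python 3.11.15, pandas 2.3.3, numpy 2.4.6, scipy 1.17.1, matplotlib 3.10.9, Biopython 1.88, R 4.3.3, edgeR 4.0.16 and DESeq2 1.42.0 were used.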

Additional observations from a re-analysis of the deposited data

How the results depend on the processing

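The median retained_intron share of the 7 genes, as the mean of both replicates per gene, was 20.6% and lay between 11.9% and 28.1% under the 6 other ways of computing the share. By replicate the median was 23.1% and 28.1% with posterior means and 13.6% and 10.3% in the table made from reads. The 28.1% in replicate 2 depended on Clk1, whose retained_intron transcripts had 0 expected counts in that replicate. With 1 replicate left out the median was 2.23% to 23.0%, the low value without replicate 1. The count of genes at 50% or more, 0 in the main table, was 1 when only transcripts at 1 TPM or more were summed, 2 at a threshold of 30%, and 0 to 2 with 1 replicate left out. The count over 2-fold apart was 4, and 2 with posterior mean TPM, where Clk1 and Clk4 were within 2-fold. For Clk4 that posterior value in replicate 2 does not rest on assigned reads. The count over 2-fold apart was 3 to 5 under the other 7 settings. Of 36 recomputed gene levels 11 moved by more than the SD of the replicates, as did 8 of 41 recomputed shares. The cause was not tested. The SD used is largest where the replicates differ most, so these counts can miss large shifts there. Ddx5 did not count as moved, with a mean of 4361 TPM (SD 4381) against 894 TPM in the table made from reads. Another table moved the median log2 ratio of all genes from -0.39 to -1.77 (the table made from reads), so directions of gene levels between replicates are relative to it. There Ddx17 and Ddx39b were over 2-fold lower in replicate 2 and Ddx5 was within 2-fold. Son was lower in replicate 2 there and higher in the main table. The splits of Clk1 in replicate 2 rest on 14 counts, and Clk4 has 0 counts in that replicate. No paired analysis was possible because the series has 1 group.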
